A study of Mus musculus with 32 samples.

Results

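The response to the auxin IAA was examined in mouse embryonic stem cells that overexpress wild-type CTCF, from 4 of the 32 RNA-seq libraries of a study of CTCF and cohesin. The libraries were chosen by title, 2 of untreated cells (oeCTCFwt) and 2 of cells given IAA (oeCTCFwt_IAA), and all 13938 genes with a mean normalised count of at least 10 over the 12 libraries of the overexpression experiment were tested, of 14970 listed. All cells were E14, an embryonic stem cell line, and all carried the genotype CTCF AID, in which CTCF bears an auxin-inducible degron. They were grown without serum in LIF with PD0325901, an inhibitor of MEK, and CHIR99021, an inhibitor of GSK3. IAA is indole-3-acetic acid, given at 500 uM according to the treatment protocol. The groups used for comparison were cells overexpressing a control (oectrl) and cells overexpressing mutated CTCF (oeCTCFmut), each untreated or with IAA and with 2 libraries per group. The labels name neither the mutation, nor the vector and promoter of the overexpressed protein, nor whether the cells are 1 clone. Nothing in them says that the 2 libraries of a group came from separate cultures, so p-values measure only the spread between these libraries, which may be technical.

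The labels disagree for 4 libraries. Those titled oeCTCFwt_IAA carry the treatment label of untreated cells, and those titled oeCTCFmut carry the label of 12 hours of IAA, as do the IAA libraries of the control and of mutated CTCF. By the treatment label no library of cells with wild-type CTCF was treated, so no value can be given without these libraries. The gene Cyp1a1, reported below, was at 142 and 138 normalised counts in the libraries titled oeCTCFmut. It was at 833 and 946 in those titled oeCTCFwt_IAA. In the control it was at 109 and 105 untreated and at 883 and 833 with IAA. Which label is right was not tested. Groups follow the titles throughout, "with IAA" refers to the libraries so titled, and the hours of treatment in cells with wild-type CTCF are not settled by the labels.

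CTCF is a zinc finger protein that binds DNA at a long, directional motif, halts the cohesin complex as it extrudes chromatin loops, and also binds near many promoters. A degron is a tag through which auxin recruits a plant-derived ubiquitin ligase adaptor to the tagged protein, which is then destroyed by the proteasome. An untagged copy of CTCF is not a target of this ligase, so a comparison of IAA with no treatment in cells that overexpress CTCF asks what is left of the response when another source of the protein is present. The labels do not say whether the added copy carries the tag. The deposited table holds 1 value per library for Ctcf, so added and endogenous transcripts cannot be told apart, and the table does not measure the protein. Indole compounds are also ligands of the aryl hydrocarbon receptor (AHR), a transcription factor that binds xenobiotic response elements and induces enzymes of the cytochrome P450 1 family.

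Sequence upstream of 5 genes is shown because the results turn on their groups: genes whose response differed from that of the control, cholesterol synthesis genes, targets of the oxidative stress factor NRF2, and targets of AHR. Each sequence is the 250 bases before the start of the gene in RefSeq on GRCm38.p6, 5′ to 3′ on the strand of the gene, and the capitals mark the match to the motif named for it. Adprhl2 lies on the minus strand (chr4:126321704-126321953), and the capitals begin 56 bases before the start and match the core of the CTCF motif: CC, any base, C, any base, AG, any 2 bases, GGC. Hsd3b7 lies on the plus strand (chr7:127800359-127800608), and the same motif begins 101 bases before the start. Hmgcs1 lies on the plus strand (chr13:119690101-119690350), and the CCAAT box, here in its reverse complement, begins 237, 176 and 45 bases before the start. Gclm lies on the plus strand (chr3:122245307-122245556), and the antioxidant response element TGACNNNGC, in its reverse complement, begins 134 bases before the start. Cyp1a1 lies on the plus strand (chr9:57697363-57697612), and the xenobiotic response element GCGTG begins 54 bases before the start.
Adprhl2: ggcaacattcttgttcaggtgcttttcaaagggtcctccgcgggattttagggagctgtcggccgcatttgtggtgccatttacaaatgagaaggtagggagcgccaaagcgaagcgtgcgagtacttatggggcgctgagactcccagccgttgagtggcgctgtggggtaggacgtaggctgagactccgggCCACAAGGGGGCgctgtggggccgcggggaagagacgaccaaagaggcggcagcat
Hsd3b7: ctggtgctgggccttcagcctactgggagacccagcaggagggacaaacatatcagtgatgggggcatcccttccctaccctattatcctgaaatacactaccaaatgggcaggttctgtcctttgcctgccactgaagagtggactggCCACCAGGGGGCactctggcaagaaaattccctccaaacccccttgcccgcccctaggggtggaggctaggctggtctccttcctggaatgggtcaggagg
Hmgcs1: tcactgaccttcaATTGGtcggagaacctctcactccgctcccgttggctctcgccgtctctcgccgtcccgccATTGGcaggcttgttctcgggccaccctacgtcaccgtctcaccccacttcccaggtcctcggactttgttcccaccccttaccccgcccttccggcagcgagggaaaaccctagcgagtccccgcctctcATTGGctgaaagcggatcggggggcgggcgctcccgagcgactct
Gclm: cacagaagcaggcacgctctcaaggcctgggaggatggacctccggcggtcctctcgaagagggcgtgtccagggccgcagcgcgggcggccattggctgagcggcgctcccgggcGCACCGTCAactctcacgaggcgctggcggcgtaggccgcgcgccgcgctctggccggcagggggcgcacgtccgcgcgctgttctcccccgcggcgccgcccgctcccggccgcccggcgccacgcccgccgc
Cyp1a1: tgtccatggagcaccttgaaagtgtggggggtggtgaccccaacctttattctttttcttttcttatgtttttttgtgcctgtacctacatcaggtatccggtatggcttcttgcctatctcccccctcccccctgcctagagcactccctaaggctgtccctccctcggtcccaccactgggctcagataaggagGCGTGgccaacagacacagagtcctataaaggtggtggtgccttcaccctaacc

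The windows searched held 300 bases, 250 before to 50 after the start, on both strands, and 10299 of the 13927 symbols tested (73.9%) had one. A match to the CTCF core was found in 4.64% of all windows, in 18 of the 118 windows of genes whose response to IAA was more positive with wild-type CTCF than in the control (15.3%), and in 1 of the 34 windows of genes with a more negative response (2.94%). Among genes named below for a more positive response, Adprhl2 and Hsd3b7 held a match. The windows of Cc2d2a, Dennd6b, Rhou, Nr2c1 and Snhg17 held none. The antioxidant element was in 16.7% of all windows and in 6 of the 10 windows of NRF2 targets. The CCAAT box was in 44% of all windows and in 11 of the 11 windows of cholesterol synthesis genes. The sterol element TCACNCCAC, the motif of SREBP, was in 1.36% of all windows and in 1 of those 11. The xenobiotic element, a short motif, was in 56.1% of all windows, in 4 of the 7 windows of AHR targets and in 9 of the 11 windows of cholesterol synthesis genes. These matches describe letters in a window and are not shown to be bound.

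Library totals lay between 19073890 and 19546135 normalised counts in the 12 libraries, and the depth in reads is unknown. Replicates correlated across genes with r from 0.985 to 0.989 on the log2 scale, a description of libraries over genes that are not independent. Untreated cells with wild-type CTCF had the largest spread between replicates, with an SD of the log2 difference of 0.254 over 10140 genes with a mean of at least 100, against 0.195 to 0.217 in the other groups. All 8 markers of embryonic stem cells were in the table, at 3900 to 33700 normalised counts in the 4 libraries with wild-type CTCF. Of a short set of markers of other cell types, none exceeded 193 normalised counts there, and Sox17, Ptprc and Dcn were among those not listed. Some genes of the longer lineage lists below were higher. Untreated cells with wild-type CTCF held the neural gene Tubb3 at 1175 and 1171 and the trophoblast gene Tfap2c at 1107 and 1068. The summed trophoblast markers Cdx2 and Eomes went from 158 and 160 to 110 and 122 with IAA, and neither gene was called. Tek, a marker of blood and endothelium, was called lower, from 188 and 193 to 117 and 150. The part of other cells in the results was not tested, and in bulk samples fewer cells of a type and less RNA per cell cannot be told apart.

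Ctcf (chromosome 8, 105636568 to 105682922) was at 9275 and 9481 normalised counts in untreated cells with wild-type CTCF and at 11631 and 11077 with IAA. In the control it was at 4134 and 4332 untreated and at 5185 and 5098 with IAA. Both libraries with wild-type CTCF were thus above every control library in either condition. The rise with IAA was 0.28 on the log2 scale with wild-type CTCF (SE 0.03, limma adjusted p = 0.000221) and 0.28 in the control, and the difference between those rises was not called (adjusted p = 0.982).

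IAA changed the transcripts of cells with wild-type CTCF broadly and mostly by small amounts. Of the 13938 genes tested, 2979 (21.4%) were called at a limma adjusted p under 0.05, 1544 higher (11.1%) and 1435 lower (10.3%), and 4822 had an unadjusted p under 0.05. The median size of a called difference was 0.36 on the log2(value + 1) scale, and 67.9% of the calls were smaller than 0.5. A difference of at least 1 on that scale, here called 2-fold, was reached by 292 called genes (2.09%), 134 higher (0.961%) and 158 lower (1.13%). Calls of at least 2-fold sat among the weakly expressed genes: 194 had a mean of 10 to 100, 92 a mean of 100 to 1000, and 6 a mean above 1000, although the share called rose over those bins from 7.85% to 20.4% and 34.7%. Protein-coding genes were called in 23% of cases and long noncoding RNA genes in 8.03%, and 48 of the 65 noncoding calls were higher. With 1 library left out the calls numbered 1701 to 2067, with the lowest count without oeCTCFwt_IAA replicate 2.

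**Figure D1:**
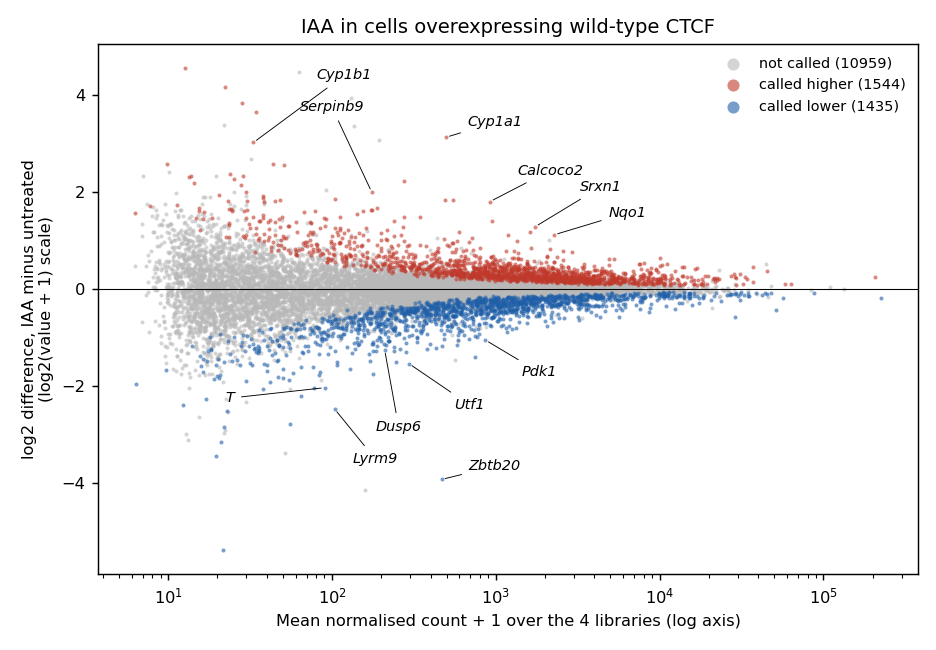
Mean normalised count of each gene over the 4 libraries of cells with wild-type CTCF (log axis, value + 1) against its log2 difference, IAA minus untreated; red and blue points are the 1544 genes called higher and the 1435 called lower, grey points were not called. Calls at high means are small, and Cyp1a1, Calcoco2, Srxn1 and Nqo1 stand above 1 at means above 100.

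Genes of xenobiotic and oxidative metabolism were among the largest rises. Cyp1a1 (chromosome 9, 57687928 to 57703824), the P450 enzyme that is the classical target of AHR, was at 107 and 94.8 normalised counts untreated and at 833 and 946 with IAA. The groups lay far apart, and the rise was 3.12 on the log2 scale (SE 0.10, limma adjusted p = 3.97e-08), beside 2.99 in the control and 3.40 with mutated CTCF. Cyp1b1, a second P450 of the same family, went from 5.41 and 7.29 to 59.7 and 56.3 (log2 difference 3.02, SE 0.34, adjusted p = 0.000174). Nqo1, a quinone reductase that both AHR and NRF2 are known to induce, went from 1464 and 1408 to 3093 and 3115 (1.11, SE 0.04, adjusted p = 1.09e-07). These 3 were the AHR targets called higher of 8 tested, and Tiparp, a negative regulator of the receptor, was called lower, from 1416 and 1363 to 1028 and 1006 (-0.45, adjusted p = 0.00113). Of all genes tested, 11.1% were called higher and 10.3% lower. The median of the AHR targets was 1.22, beside a median of -0.005 over all genes tested and 1.23 for the list in the control. Without oeCTCFwt replicate 2 that median was 0.75. Of 6 proteins of AHR signalling none was called higher, and Ahr itself, at 371 and 307 untreated and at 263 and 246 with IAA, was called lower (-0.41, adjusted p = 0.0226). The call of Ahr was lost without oeCTCFwt replicate 1 (-0.27) and without either IAA library (-0.45 and -0.36). No difference of the response from that of the control or of mutated CTCF was called for any AHR target or signalling protein in these lists.

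NRF2 switches on antioxidant enzymes when its inhibitor KEAP1 is modified. Of 13 targets tested, 8 were called higher and none lower, against 11.1% and 10.3% of all genes tested. Their median was 0.37, and in the control 9 were called higher, with a median of 0.25. Srxn1 (chromosome 2, 152105516 to 152111376), which repairs oxidised peroxiredoxins, was at 1030 and 995 untreated and at 2399 and 2509 with IAA. The libraries did not overlap, and the log2 difference was 1.28 (SE 0.05, limma adjusted p = 9.68e-08). Txnrd1, a thioredoxin reductase, rose by 0.63, from 7832 and 7964 to 12309 and 12120. Gclm and Gclc, the subunits of the enzyme that limits glutathione synthesis, rose by 0.65 and 0.44, and Pgd, of the pentose phosphate pathway, rose by 0.37. Hmox1, heme oxygenase 1, was called higher by 0.33, a call that was lost without oeCTCFwt replicate 2 (0.21) and without IAA replicate 1 (0.30) or 2 (0.35). Of the 5 targets not called, Slc7a11, a cystine transporter, was at 27.8 and 18.9 untreated and at 40.0 and 41.2 with IAA (0.80), and Taldo1, Me1, G6pdx and Gstm1 lay between -0.07 and 0.12. No NRF2 target was called for a difference from the control or from mutated CTCF. Other stress genes were called in either direction. Of 19 genes of the integrated stress response 6 were called higher, among them Atf5 (0.56) and Trib3 (0.55), and 1 lower, and without oeCTCFwt replicate 2 only 2 were called higher. Of 12 heat shock and unfolded protein response genes 5 were higher and 1 lower. Hspa1b, an inducible chaperone, went from 79.7 and 89.3 to 169 and 164 (0.97, adjusted p = 0.000938), and Hspa5, the chaperone of the endoplasmic reticulum, rose by 0.39.

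Further large rises came from genes of varied function. Calcoco2 (chromosome 11, 96099326 to 96111964), an autophagy receptor, was at 418 and 403 untreated and at 1403 and 1453 with IAA, a rise of 1.80 on the log2 scale (SE 0.07, adjusted p = 1.77e-07 by limma). Among called genes whose higher group averaged 1000 or more, it had the largest rise, followed by Zmiz1 (1.40), Srxn1, Eif4g3, a translation initiation factor (1.17), and Nqo1. Serpinb9, an inhibitor of granzyme B, went from 74.5 and 64.3 to 284 and 273 (1.99, SE 0.13, adjusted p = 6.43e-06). Its libraries did not overlap, as was required of each gene named by size and as held for 61.3% of all genes tested. Lama3, a laminin chain, rose by 1.85, Mobp, a myelin protein, by 1.84, and Islr2 by 1.82. Scml2 (1.66), Prkca, protein kinase C alpha (1.63), Mapt, the microtubule protein tau (1.62), Igfbp3 (1.61), Myo1f (1.60) and Il34, a ligand of the CSF1 receptor (1.53), completed the 12 largest rises. All 12 had a positive difference in the control as well, from 0.64 for Myo1f to 2.99 for Cyp1a1. Islr2, Prkca, Il34, Lama3, Mobp and Zmiz1 share exon sequence with other annotated genes, and the use of strand in counting is not given in the sources used here, so their values are less certain.

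**Figure D2:**
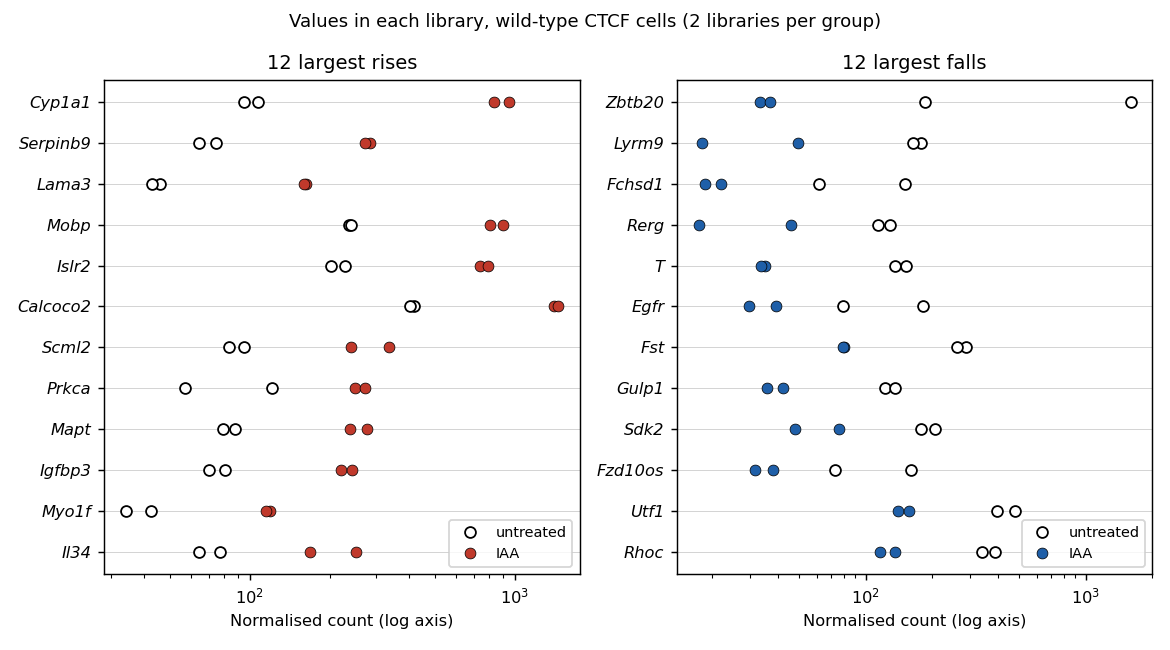
Normalised counts (log axis) of the 12 largest rises and the 12 largest falls in each library of cells with wild-type CTCF; open circles are the 2 untreated libraries, filled circles the 2 with IAA. Zbtb20 is at 187 and 1607 in the untreated libraries, the widest spread shown, while the untreated and IAA libraries of Cyp1a1 lie near 100 and near 900.

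Developmental regulators and signalling genes were among the largest falls. T (chromosome 17, 8434423 to 8442496), the mesodermal transcription factor brachyury and a Wnt target, was at 152 and 137 untreated and at 35.1 and 33.4 with IAA. The difference was -2.04 on the log2 scale (SE 0.19, adjusted p = 5.5e-05 by limma), beside -1.02 in the control, with no difference from it called (adjusted p = 0.118). Fst, follistatin, an inhibitor of activin, went from 285 and 261 to 79.6 and 79.2 (-1.77, SE 0.16, adjusted p = 4.9e-05). Rhoc, a small GTPase, went from 340 and 388 to 117 and 136 (-1.52, SE 0.20, adjusted p = 0.000427). Fst shares positions with another annotated gene on the opposite strand, as does Zbtb20. T, Fst and Rhoc kept their calls in each alternative in which they were tested, and so did Rerg, Egfr and Gulp1 (-1.71). T, Rerg, Egfr and Gulp1 were not tested with the filter at a mean of 100. Rerg was at 113 and 129 untreated and at 17.4 and 45.9 with IAA (-2.05), and the difference was -1.38 without IAA replicate 1. Egfr, the receptor of epidermal growth factor, was at 183 and 78.7 untreated and at 29.6 and 39.1 with IAA (-1.79), and the difference was -1.19 without oeCTCFwt replicate 1. Other large falls lost their calls in some alternatives. Zbtb20, a transcription repressor, was at 187 and 1607 untreated and at 33.2 and 36.9 with IAA. Its difference of -3.93 was the largest fall by the rule, but it became -2.39 and lost its call without oeCTCFwt replicate 2, and was also not called without IAA replicate 1 (-3.86) or 2 (-4.01). Fchsd1 (-2.20) lost its call without oeCTCFwt replicate 2 (-1.56) and without IAA replicate 1 (-2.32) or 2 (-2.09), and it overlaps exons of Rell2. Sdk2 (-1.66) lost it without oeCTCFwt replicate 1 (-1.76) or 2 (-1.55) or IAA replicate 2 (-1.33), and Fzd10os (-1.62) without oeCTCFwt replicate 2 (-1.05) and IAA replicate 1 (-1.75) or 2 (-1.49).

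Lyrm9 fell with wild-type CTCF in the titled comparison, at 179 and 165 untreated and at 18.0 and 49.3 with IAA. The log2 difference was -2.48 (SE 0.63, limma adjusted p = 0.0186), beside 0.09 in the control, where the IAA libraries were at 32.3 and 168, and 0.15 with mutated CTCF. The differences from these responses were -2.57 and -2.63 and were not called (adjusted p = 0.274 and 0.253). The call was lost without oeCTCFwt replicate 1 (-2.42) or 2 (-2.54) and without IAA replicate 1 (-1.78). Among more abundant genes, the largest falls were Pdk1, a kinase that shuts down pyruvate dehydrogenase, from 1225 and 1106 to 539 and 578 (-1.06, SE 0.14, adjusted p = 0.000573), Itpr1, a calcium channel of the endoplasmic reticulum (-1.01), Ntrk3, the receptor of neurotrophin 3 (-0.93), Gng2 (-0.84) and Fstl1 (-0.82). Ntrk3 was at 1484 and 634 untreated, and its difference was -0.32 and not called without oeCTCFwt replicate 1, and also not called without IAA replicate 1 (-0.86) or 2 (-1.01). Gng2 lost its call without any of the 4 libraries of the comparison (-0.97, -0.70, -0.96 and -0.72).

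Cholesterol synthesis genes moved down together. Of 19 genes tested, 16 were called lower and none higher, with a median of -0.38, and the count was 16 with any of the 4 libraries left out. Mvd, a decarboxylase of the mevalonate pathway, was at 1292 and 1192 untreated and at 808 and 755 with IAA, a difference of -0.67 (SE 0.07, limma adjusted p = 0.000107). Lss, which closes the sterol rings, fell by 0.58, Dhcr7, the last enzyme of one branch, by 0.52, and Hmgcs1, an early enzyme, by 0.35. Insig1, which retains the factor SREBP in the endoplasmic reticulum when sterols are plentiful, went from 10063 and 9893 to 7257 and 7123 (-0.47, SE 0.03, adjusted p = 1.67e-06). Srebf2, which encodes that factor, fell by 0.22. In the control 12 of the 19 were called lower, with a median of -0.23. Over all genes tested, 10.3% were called lower with wild-type CTCF and 12.5% in the control. Of genes with a mean of at least 1000, 34.7% were called in either direction with wild-type CTCF. The response of Insig1 was called as more negative with wild-type CTCF, by -0.20 (adjusted p = 0.0205). That call was lost with most single libraries left out, as given with the other differences from the control.

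Signalling pathways gave smaller and mixed counts, beside 11.1% of all genes tested called higher and 10.3% lower. FGF can signal through MEK and ERK and induce its own inhibitors, and the medium of these cells held a MEK inhibitor. Of 15 response genes 4 were called lower and 1 higher, with a median of -0.07. In the control 5 were called lower and 1 higher, and with mutated CTCF 6 and 0. Dusp6, an ERK phosphatase, was at 236 and 356 untreated and at 113 and 129 with IAA (-1.26, SE 0.22, limma adjusted p = 0.00226). Its difference was -1.37 in the control and -1.45 with mutated CTCF. Spry1, an inhibitor of receptor signalling, went from 80.1 and 72.6 to 25.8 and 39.9 (-1.22), a call lost without oeCTCFwt replicate 1 (-1.15) or 2 (-1.29) and IAA replicate 1 (-0.92). Without IAA replicate 1 only 1 of the list was called lower. The response genes Etv4 and Etv5 were at 0.01 and -0.07. Of 19 Wnt ligands, inhibitors and targets, 6 were called lower and 1 higher, with a median of 0.00, and 4 were called lower with any of the 4 libraries left out. Besides T, the falls held the Wnt effectors Lef1 and Tcf7 (-0.39), and the target Sp5 (-0.51). Lef1 was at 192 and 184 untreated and 109 and 90.6 with IAA (-0.91, SE 0.16, limma adjusted p = 0.00287). Axin2 (-0.24) and Sfrp1, a secreted Wnt inhibitor (-0.14), were also called lower. Those calls were lost without any 1 of the 4 libraries (-0.29 to -0.20 for Axin2, -0.15 to -0.13 for Sfrp1). The rise was that of Dkk1, a secreted Wnt inhibitor, from 15.5 and 14.2 to 67.6 and 50.5 (1.91, SE 0.23, adjusted p = 0.000313). In the control 5 of the Wnt list were called lower and 3 higher, and with mutated CTCF 6 and 2. Lef1 was at -0.48 in the control and -0.50 with mutated CTCF, called in neither. Of 14 genes of BMP and Nodal signalling, 4 were called higher and 1 lower, with a median of 0.02. In the control 4 were called higher and 3 lower, and with mutated CTCF 2 and 5. Lefty1 and Lefty2, inhibitors of Nodal, rose by 0.56 and 0.41, and the co-receptor gene Tdgf1 by 0.40. Id3, a BMP target, went from 121 and 101 to 46.4 and 53.4 (-1.14, limma adjusted p = 0.00219). The difference of Id3 was -1.66 in the control and -2.05 with mutated CTCF. The fourth rise, of Nodal (0.18), was not called without any 1 of the 4 libraries (0.14 to 0.22). Of 19 p53 targets, 7 were called lower and 2 higher, with a median of -0.24. In the control 6 were called lower and 2 higher, and with mutated CTCF 4 and 2. Cdkn1a, which encodes the cell cycle inhibitor p21, was at 3825 and 3771 untreated and at 2514 and 2532 with IAA (-0.59, SE 0.04, limma adjusted p = 7.83e-06). Trp53inp1 fell by 0.59. Cdkn1a fell by 0.83 in the control and 0.28 with mutated CTCF, and Trp53inp1 by 0.43 and 0.33. Without oeCTCFwt replicate 2, 5 p53 targets were called lower and none higher.

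Pluripotency genes changed little in level and not in 1 direction. Beside the counts that follow, 11.1% of all genes tested were called higher and 10.3% lower. Of genes with a mean of at least 1000, 34.7% were called in either direction. Of 17 genes of naive pluripotency 7 were called higher and 5 lower, with a median of 0.06, and all but Dppa3 (0.55) lay within 0.41 of 0. Nanog rose by 0.11, from 13841 and 13782 to 14968 and 14847, and Tdh, a threonine dehydrogenase of these cells, fell by 0.41. Without IAA replicate 1 the rise of Nanog was not called (0.10), and 4 genes of the list were called higher. Of 8 core genes 3 were higher and 3 lower. Sall4 rose by 0.36 and Sox2 was not called (-0.05). Pou5f1, at 16923 and 16614 untreated and 15611 and 15775 with IAA, was called lower by -0.10, and that call was lost without any 1 of the 4 libraries (-0.08 to -0.11). Utf1, a chromatin factor of undifferentiated cells, moved far more, from 480 and 397 to 140 and 158 (-1.55, SE 0.13, limma adjusted p = 3.51e-05). Lineage lists held calls in either direction. Among 7 trophoblast genes, Krt8 (-0.80) and Krt18 (-0.81) fell and Tfap2c rose (0.50), and Krt18 was not called without oeCTCFwt replicate 2 (-0.55) or IAA replicate 1 (-0.89) or 2 (-0.73). Among 6 neural genes Tubb3 (0.83) and Nes (0.65) rose and Map2 fell (-0.65), with Map2 not called without oeCTCFwt replicate 1 (-0.58) or IAA replicate 2 (-0.53). Of 18 germline genes 6 were higher, among them Dazl (0.64) and Ddx4 (0.70), and Tex15 was lower (-1.04). No gene of the interferon response was called of 13 tested (limma), and of 18 G2/M genes 2 were higher and 3 lower, with a median of 0.01. Of 78 ribosomal protein genes 27 were called lower and 1 higher, with a median of -0.07. In the control 32 of them were called lower, and 6 with mutated CTCF. With 1 library left out the ribosomal genes called lower numbered 15 to 18, with the fewest without IAA replicate 1.

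**Figure D3:**
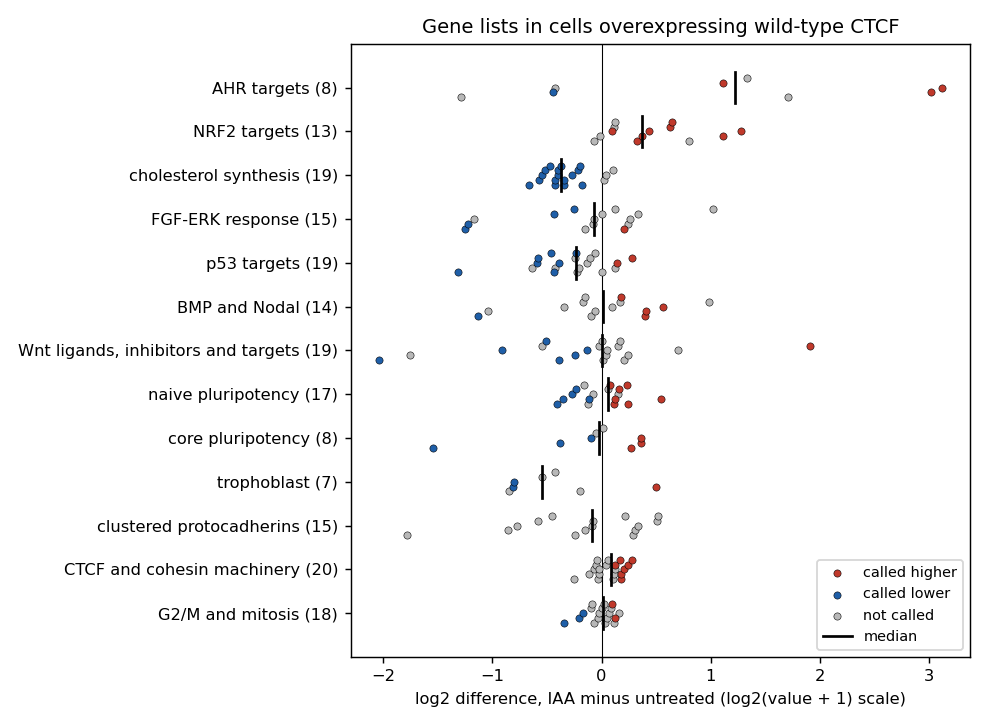
Log2 differences (IAA minus untreated, log2(value + 1) scale) of the members of 13 gene lists in cells with wild-type CTCF; each point is a gene tested, red called higher, blue called lower, grey not called, the bar is the median of the list and the number of genes tested is in brackets. The 16 cholesterol genes called lower lie below 0, around the median of -0.38, and no point of the clustered protocadherins is coloured.

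Much of the response was shared with the control. Of the 1544 genes called higher with wild-type CTCF, 1009 were also called higher in the control, which is 65.3% of the first list and 56.6% of the 1784 in the control. Of the 1435 called lower, 915 were shared, 63.8% of the first list and 52.4% of the 1746. Opposite calls numbered 9 among the rises and 1 among the falls, Ppfia4. At 2-fold in both, the shared genes were 77 rises, 57.5% of 134 and 30.1% of 256, and 62 falls, 39.2% of 158 and 21.2% of 293. The control had 3530 calls (25.3%), 12.8% of genes higher and 12.5% lower, and 549 of them were at least 2-fold (3.94%), 1.84% of genes higher and 2.1% lower. Mutated CTCF had 2262 calls (16.2%), 8.31% of genes higher and 7.92% lower, with 253 of at least 2-fold (1.82%), 0.904% higher and 0.911% lower. The difference of the responses itself was tested gene by gene. It was called for 197 genes against the control (1.41%), 154 more positive with wild-type CTCF (1.1%) and 43 more negative (0.309%), with 1644 at an unadjusted p under 0.05. At least 2-fold differences (0.509%) numbered 67 positive (0.481%) and 4 negative (0.0287%), the latter being Snx32, Dkk1, Slco5a1 and Lad1. With 1 library left out, 101 to 164 differences were called, with the fewest without oeCTCFwt_IAA replicate 1, and the fit of the 4 groups of that comparison alone called 123.

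Most of the 154 positive differences were falls in the control that were smaller or not called with wild-type CTCF. In 67 the gene was called lower in the control and not called with wild-type CTCF, in 62 it was lower in both, in 15 higher with wild-type CTCF alone, in 9 higher with wild-type CTCF and lower in the control, and in 1, Ly6a, higher in both. Cc2d2a (chromosome 5, 43662346 to 43740972), a protein of the ciliary transition zone, was at 246 and 268 untreated and at 140 and 177 with IAA in cells with wild-type CTCF. In the control it was at 187 and 250 untreated and at 17.0 and 18.9 with IAA. The groups with IAA did not overlap, and the responses of -0.70 and -3.52 differed by 2.83 (SE 0.26, limma adjusted p = 0.000252). Adprhl2, a hydrolase of ADP-ribose whose upstream sequence is given above, was at 632 and 591 untreated and at 465 and 415 with IAA with wild-type CTCF, against 582 and 545 and then 79.2 and 77.7 in the control. Its responses of -0.48 and -2.83 differed by 2.35 (SE 0.13, adjusted p = 5e-06). Hsd3b7, an enzyme of bile acid synthesis whose upstream sequence is given above as well, was at 117 and 113 and then 69.0 and 54.8, against 130 and 105 and then 9.84 and 10.7 in the control. Its difference was 2.50 (SE 0.31, adjusted p = 0.00214), and its exons overlap those of other annotated genes. Snhg17, a host transcript of small nucleolar RNAs, was at 1023 and 969 and then 965 and 841 with wild-type CTCF, which was not called (-0.14), against 1095 and 1129 and then 175 and 152 in the control. The difference was 2.62 (SE 0.14, adjusted p = 5e-06). Dennd6b (2.73), Rhou, a small GTPase (2.48), Nr2c1, a nuclear receptor (2.20), and R3hcc1 (2.19) had the same order of values. With mutated CTCF the responses were -1.09 for Cc2d2a, -0.15 for Adprhl2, -1.25 for Dennd6b, -1.36 for Rhou, -0.82 for Nr2c1 and -0.41 for R3hcc1. Those of Adprhl2 and Nr2c1 were not called. None of these responses was called as different from that with wild-type CTCF. The calls of a fall with wild-type CTCF were less secure than the differences: that of Cc2d2a was lost without oeCTCFwt replicate 1 (-0.76) or 2 (-0.64) or IAA replicate 1 (-0.53), and that of Hsd3b7 without oeCTCFwt replicate 1 (-0.86) or 2 (-0.92) or IAA replicate 2 (-0.73). The fall of Dennd6b was not called without oeCTCFwt replicate 2 (-0.85) or IAA replicate 1 (-1.14) or 2 (-0.85). Those of Rhou (-0.82 to -0.75) and Nr2c1 (-1.06 to -0.95) were not called without any 1 of the 4 libraries. The difference of Nr2c1 was not called without oectrl replicate 1 (2.22) or 2 (2.18), oeCTCFwt replicate 2 (2.18) or oeCTCFwt_IAA replicate 1 (2.14) or 2 (2.26), whereas the differences of the other 7 kept their calls.

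**Figure D4:**
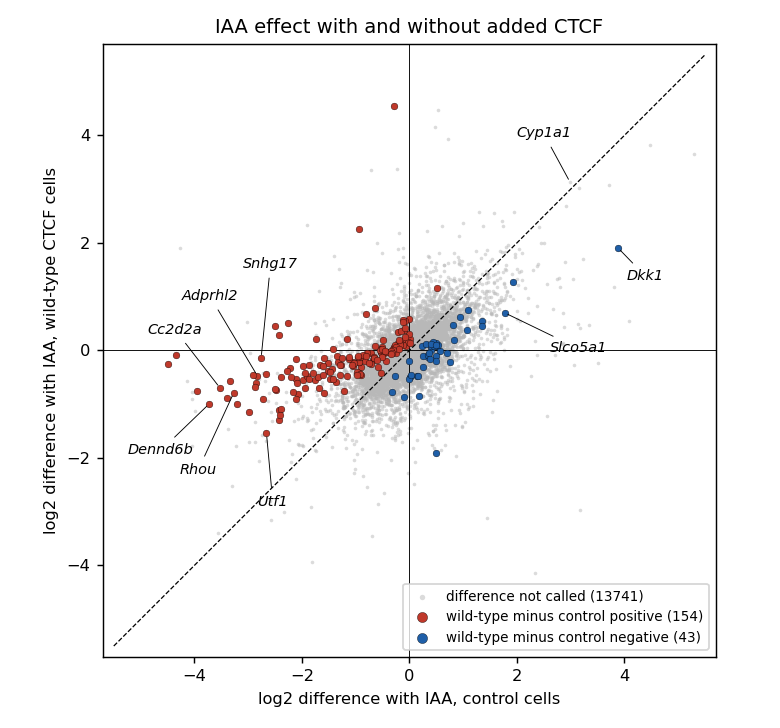
Log2 difference with IAA in control cells (horizontal) against that in cells with wild-type CTCF (vertical) for the 13938 genes tested, both on the log2(value + 1) scale; red and blue points are the 154 positive and 43 negative called differences between these responses, and the dashed line marks equal responses. Most red points lie left of 0 on the horizontal axis and above -1 on the vertical axis, with Cc2d2a at -3.52 and -0.70.

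The gamma cluster of protocadherins, cell surface proteins whose alternative promoters are known to be chosen through CTCF, responded differently from the control at several members. Of 19 members listed, 15 passed the filter on low values, and none was called with wild-type CTCF (limma), with a median of -0.08 and a range from -1.78 to 0.52. In the control 11 of the 15 were called lower, with a median of -2.43. With mutated CTCF 2 were called lower, with a median of -0.22. Over all genes tested, 21.4% were called in either direction with wild-type CTCF. Of genes with a mean of 10 to 100, 7.85% were. Called lower were 12.5% of all genes tested in the control and 7.92% with mutated CTCF. The difference from the control was called for 6, all positive, beside 1.1% of all genes tested called as more positive. Pcdhga1 was at 53.4 and 49.95 untreated and at 33.0 and 42.5 with IAA with wild-type CTCF, against 62.8 and 43.6 and then 6.72 and 5.46 in the control, a difference of 2.46. Pcdhga7 was at 13.4 and 12.2 and then 12.9 and 11.2, while both control libraries with IAA were listed at 0. The constant members Pcdhgc3 and Pcdhgc4 were called in neither. Pcdhga11 had a difference of 2.72 (SE 0.57, adjusted p = 0.0479), which was not called without oectrl replicate 1 (2.91) or 2 (2.53), oectrl_IAA replicate 1 (2.96) or 2 (2.48), oeCTCFwt replicate 2 (2.33) or oeCTCFwt_IAA replicate 1 (2.97) or 2 (2.47). These genes share their last exons, so counting can move reads between them.

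The 43 negative differences were mainly rises that were smaller with wild-type CTCF. In 17 the gene was called higher in the control and not called with wild-type CTCF, in 14 it was higher in both, in 9 it was lower with wild-type CTCF alone, in 2, Trpm1 and Insig1, lower in both, and in 1, Ppfia4, opposite. Dkk1 rose in both, from 11.4 and 12.5 to 182 and 198 in the control, and the rises of 1.91 and 3.88 differed by -1.97 (SE 0.33, limma adjusted p = 0.0149). Slco5a1, a transporter of the organic anion family, was at 248 and 238 and then 383 and 409 with wild-type CTCF, against 207 and 221 and then 742 and 722, a difference of -1.07 (SE 0.12, adjusted p = 0.00102). It kept its call with each library left out. The difference of Dkk1 was not called without oectrl replicate 1 (-1.91), oectrl_IAA replicate 1 (-2.03) or 2 (-1.91) or oeCTCFwt_IAA replicate 2 (-1.76). Lad1, Rab15 and Lxn had differences of -1.02, -0.96 and -0.90. Lad1 was not called with any 1 of the 8 libraries left out (-1.09 to -0.96), Rab15 not without oectrl_IAA replicate 2 (-0.87), oeCTCFwt replicate 2 (-0.91) or oeCTCFwt_IAA replicate 2 (-0.90), and Lxn not without oectrl replicate 1 (-0.85), oectrl_IAA replicate 1 (-0.83), oeCTCFwt replicate 2 (-0.83) or oeCTCFwt_IAA replicate 1 (-0.89) or 2 (-0.91). The difference of Insig1 was not called in 7 such fits (-0.22 to -0.18). Utf1 fell more in the control, from 498 and 495 to 79.4 and 76.1, and its positive difference of 1.11 (SE 0.19, adjusted p = 0.0157) was not called without oectrl replicate 1 (1.11) or 2 (1.12), oectrl_IAA replicate 2 (1.08), oeCTCFwt replicate 2 (0.98) or oeCTCFwt_IAA replicate 2 (1.03).

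Differences from mutated CTCF were fewer, and the untreated libraries of that group are among those whose labels disagree. Both tests of a difference share the 4 libraries with wild-type CTCF. The difference was called for 94 genes (0.674%), 75 positive (0.538%) and 19 negative (0.136%), with 1764 at an unadjusted p under 0.05, and for 5 genes, all positive, when the variance was fitted without a trend on the mean. Only Zfp566 and Bnip3 differed by at least 2-fold (0.0143% of genes), both positive. Zfp566, a zinc finger gene, was at 153 and 176 untreated and at 315 and 401 with IAA with wild-type CTCF, against 294 and 383 and then 199 and 246 with mutated CTCF, a difference of 1.71 (SE 0.28, limma adjusted p = 0.0202). Bnip3, a mitophagy receptor, was at 762 and 721 and then 792 and 774, against 507 and 577 and then 261 and 245, a difference of 1.17 (SE 0.16, adjusted p = 0.00812). Its call held with each library left out but not without the variance trend (adjusted p = 0.108), nor did that of Zfp566 (0.162). The difference of Zfp566 was also not called without oeCTCFwt replicate 1 (1.61) or 2 (1.81), oeCTCFmut replicate 2 (1.52), oeCTCFwt_IAA replicate 2 (1.53), or oeCTCFmut_IAA replicate 1 (1.56) or 2 (1.86). Lefty2 differed from both other responses, by 0.49 from the control (adjusted p = 0.00274) and by 0.69 from mutated CTCF (adjusted p = 0.000868). It was at 1871 and 1945 and then 2576 and 2502 with wild-type CTCF, at 1881 and 1997 and then 1867 and 1797 in the control, and at 1877 and 1901 and then 1564 and 1543 with mutated CTCF. Both calls held with each library left out.

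**Figure D5:**
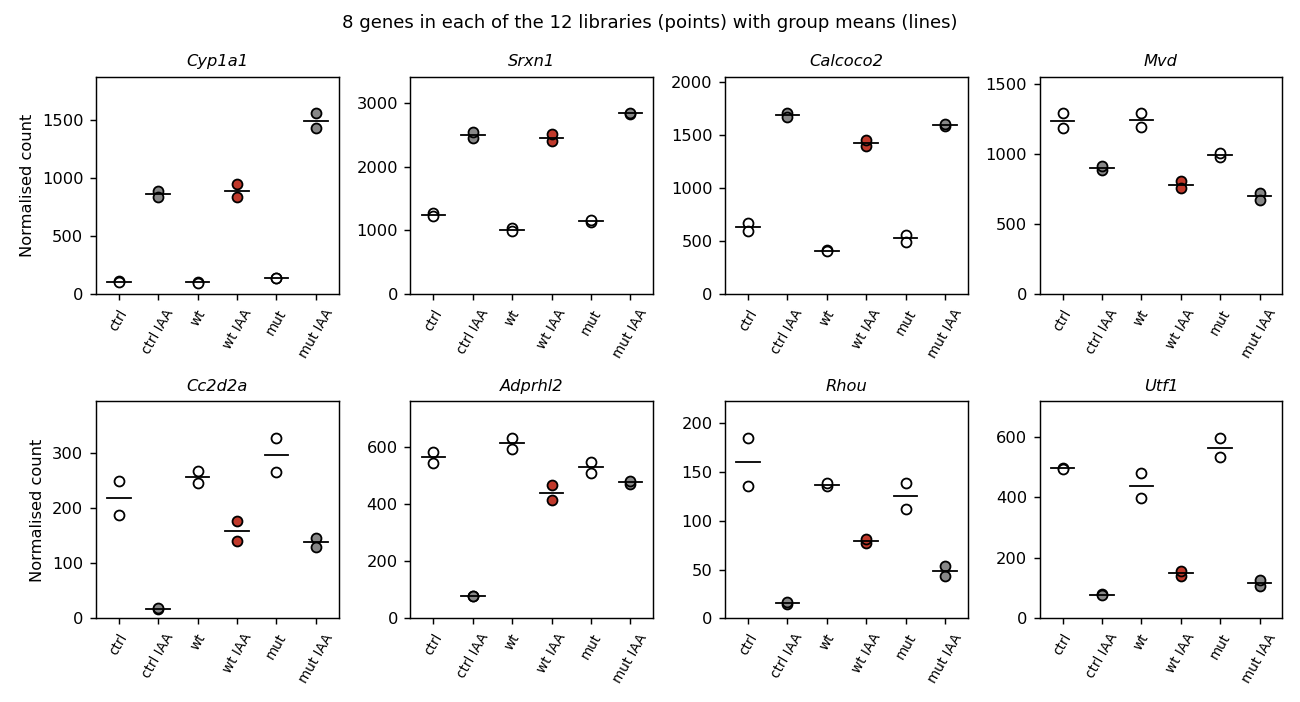
Normalised counts of 8 genes in each of the 12 libraries (points) with the mean of each group of 2 (lines); ctrl, wt and mut are cells overexpressing the control, wild-type CTCF or mutated CTCF, open points are untreated, red points wild-type CTCF with IAA and grey points the other groups with IAA. Cyp1a1 is above 800 with IAA in the control, with wild-type and with mutated CTCF, whereas Adprhl2 with IAA is at 79.2 and 77.7 in the control and at 465 and 415 with wild-type CTCF.

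The response was also read in genes chosen from separate libraries. Genes were taken from the experiment on CTCF degradation for 12 hours in cells without overexpression. They were the 10 largest rises and 10 largest falls that met the naming rule. Those sizes chose the genes, so the medians of the degradation experiment are not like measures beside the others. Its 12-hour cells were also given IAA at 500 uM, so effects of the compound and of CTCF loss cannot be told apart in these genes. Of the rises, 7 were called higher with wild-type CTCF, 8 in the control and 6 with mutated CTCF, with medians of 2.60 in the degradation experiment, 1.60 with wild-type CTCF, 2.12 in the control and 1.57 with mutated CTCF. The 7 were Cyp1a1, Serpinb9, Gnat1 (3.65), Slc25a45 (2.00), Igfbp5 (1.49), Gabrp (1.38) and Ecm1 (1.17). Gnat1 was low, at 12.6 and 0.71 untreated and at 64.2 and 55.1 with IAA. Its call was lost without oeCTCFwt replicate 2 (2.155) and without IAA replicate 1 (3.54) or 2 (3.76). Trh, the precursor of thyrotropin-releasing hormone, went the other way, from 788 and 877 to 531 and 571 (-0.59, limma adjusted p = 0.000536). It was called lower in the control and with mutated CTCF also. In the degradation experiment Trh averaged 73.0 untreated and 439 at 12 hours, so the untreated levels were unlike. Of the falls, 6 were called lower with wild-type CTCF, 6 in the control and 5 with mutated CTCF, but the medians were -3.69 in the degradation experiment, -0.69 with wild-type CTCF, -3.04 in the control and -0.61 with mutated CTCF. For 5 of the 10, Cc2d2a, Dennd6b, Nr2c1, Rhou and R3hcc1, the fall was called as smaller with wild-type CTCF than in the control. Over all genes tested, 11.1% were called higher with wild-type CTCF, 12.8% in the control and 8.31% with mutated CTCF. Called lower were 10.3%, 12.5% and 7.92%, in the same order. The response was called as more positive with wild-type CTCF than in the control for 1.1% of all genes tested. Irf5, Fhad1 and Ankrd44 were called in none of the 3 kinds of cell here, and their values with wild-type CTCF, for example 4.55 and 4.41 untreated for Irf5, were low. The falls counted with wild-type CTCF dropped to 1 without oeCTCFwt replicate 2 and without IAA replicate 1. Of the rises, 3 remained without IAA replicate 2 and 5 without any 1 of the other 3 libraries.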

How the data were processed

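RNA was measured by RNA-seq in 12 libraries of the overexpression experiment, 2 per group. The values are normalised counts, a signal per gene and library that the authors deposited already normalised; the method of that normalisation is not given in the sources used here. Per the submitters' processing notes, Trim Galore, Bowtie2, STAR, RSEM and DESeq2 were among the tools, without version or order, and the build was mm10. Whole reads were not recovered, so no count test was run.

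The scale was log2(value + 1), and the fits used limma (version 3.58.1, R version 4.3.3) with the 6 groups in 1 model, a variance trend on the mean and Benjamini-Hochberg adjustment over 13938 genes with a mean of at least 10. Genes were called at an adjusted p under 0.05, and a difference between responses was an interaction in that model. An exact permutation test of 2 against 2 libraries cannot go below 0.333 (two-sided). The model was tested on simulated data. Gene positions are from GENCODE M21 (GRCm38), which held 99.9% of identifiers, and promoters are from RefSeq. The CTCF degradation table was used up to its last complete line.

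Named genes were the 12 largest called rises and falls averaging 100 or more in the higher group, with libraries that did not overlap and a symbol that is not provisional, the 5 largest each way with a mean of at least 1000, the 5 most positive and 5 most negative differences between responses, the 10 largest rises and 10 largest falls of CTCF degradation, members of 36 gene lists, and Ctcf. Adprhl2, Snx32, Ppfia4, Trpm1 and Ly6a were named after their values were seen. Some members of the cholesterol list are counted but not reported here by name. Members and lists were chosen with earlier results of these data known, and the motifs after other spellings and the results had been looked at. Alternatives were only the groups compared in the model, a block for the replicate number, pseudocounts of 0.5 and 10, a filter at 100 or none, trimmed-mean and quantile scaling, no variance trend, and each library left out. Libraries with the same replicate number did not deviate together (correlations of -0.031, 0.004 and -0.038), so the numbers do not pair them.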

Additional observations from a re-analysis of the deposited data

Results flagged for a closer look

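For the following genes, limma called a difference between the response to IAA with wild-type CTCF and the response of control cells. The difference was negative for Dkk1 (-1.97), Slco5a1 (-1.07), Lad1 (-1.02), Rab15 (-0.96), Lxn (-0.90), Prkaa2, a catalytic subunit of AMP-activated kinase (-0.43), the imprinted gene Peg3 (-0.33) and Insig1 (-0.20). It was positive for Lefty2 (0.49), Utf1 (1.11), R3hcc1 (2.19), Nr2c1 (2.20), Adprhl2 (2.35), Rhou (2.48), Hsd3b7 (2.50), Snhg17 (2.62), Pcdhga11 (2.72), Dennd6b (2.73) and Cc2d2a (2.83). The difference of Peg3 was not called with any 1 of the 8 libraries left out (-0.35 to -0.31), with only the groups compared in the model, or without the variance trend. That of Prkaa2 was not called without the trend, nor without oectrl replicate 1 (-0.41), oectrl_IAA replicate 1 (-0.42) or 2 (-0.44), oeCTCFwt replicate 2 (-0.40) or oeCTCFwt_IAA replicate 2 (-0.39).

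The response differed from that with mutated CTCF for 13 genes named here. The difference was negative for Prkaa2 (-0.47), Erlin1 (-0.44), Galnt2 (-0.43), Ctsc (-0.40), Zmynd8 (-0.32) and Cdkn1a (-0.31), and positive for Lefty2 (0.69), Trh (0.71), Mfsd10 (0.77), the microRNA host gene Mir17hg (0.78), Ddx58 (0.93), Bnip3 (1.17) and Zfp566 (1.71). Without the variance trend 12 of the 13 were not called, with Lefty2 the exception. With any 1 of the 8 libraries left out, Erlin1 (-0.48 to -0.39), Ctsc (-0.43 to -0.37), Ddx58 (0.82 to 1.04), Galnt2 (-0.49 to -0.38) and Zmynd8 (-0.35 to -0.29) were not called. Calls were lost in 7 of those 8 fits for Trh (0.63 to 0.76), Mfsd10 (0.58 to 0.83) and Cdkn1a (-0.33 to -0.26), in 6 for Mir17hg (0.64 to 0.81) and Zfp566 (1.52 to 1.86), and in 5 for Prkaa2 (-0.47 to -0.42).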

How the results depend on the processing

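No called value of a named gene reversed in any alternative. Of 154 such values, 29 were not called with only the groups compared in the model, 34 without the variance trend, 5 with quantile scaling, 3 with a pseudocount of 10, and 36, 50, 46 and 54 without oeCTCFwt replicate 1 or 2 or oeCTCFwt_IAA replicate 1 or 2. None was lost with a pseudocount of 0.5, trimmed-mean scaling or no filter. Differences from the control numbered 123 with only the groups compared and 123 without the trend, and differences from mutated CTCF numbered 5 without the trend. With a filter at a mean of 100, genes called at least 2-fold numbered 99 and called degradation genes 7, since fewer genes are tested. With 1 library left out, calls ranged from 1701 to 2067, those at least 2-fold from 195 to 279, differences from the control from 101 to 164, differences from mutated CTCF from 35 to 59, and degradation genes from 6 to 8. The lone library of a group is then assumed to vary like the other groups. A replicate block gave 2926 calls, 288 of at least 2-fold, 190 and 82 differences and 13 degradation genes, and 8 named values were not called in it. The cause was not tested for these changes. The depth in reads is unknown, and most calls of at least 2-fold rest on genes with a mean under 100.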

Other observations

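Genes encoded in the mitochondrial genome were looked at after their values were seen. With wild-type CTCF, 9 of the 15 tested were called higher with IAA and 0 lower (limma), with a median log2 difference of 0.26. In the control 8 were higher and 0 lower, with a median of 0.17. With mutated CTCF 0 were higher and 7 lower, with a median of -0.24. Over all genes tested, 11.1% were called higher with wild-type CTCF, 12.8% higher in the control and 7.92% lower with mutated CTCF. Of genes with a mean of at least 1000, 34.7% were called in either direction with wild-type CTCF. The response was called as more positive with wild-type than with mutated CTCF for 8 of the 15, and for 0 against the control. Among the 8 were mt-Cytb, a subunit of complex III (0.60), and mt-Co1, a subunit of complex IV (0.57). Over all genes tested, 0.538% were called as more positive than with mutated CTCF and 1.1% as more positive than in the control. Mitochondrial genes held 2.27% and 2.39% of the summed values in untreated cells with wild-type CTCF and 2.64% and 2.62% with IAA. With mutated CTCF they held 2.84% and 3.08% untreated and 2.48% and 2.45% with IAA, and those untreated libraries are among the 4 whose title and treatment label disagree. The part of RNA quality in these values was not tested.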
